A study of Homo sapiens with 6 samples.

Results

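The Hippo pathway factors and targets of its effector YAP make up 10 of the 58884 genes counted in HSC-4 cells. They were taken by gene symbol and comprised the co-activators *YAP1* and *WWTR1*, their DNA-binding partner *TEAD1*, the kinases *LATS1* and *LATS2*, the kinase inhibitor *AJUBA*, the junctional regulator *AMOTL2* and the targets *CCN1*, *CCN2* and *ANKRD1*. With DAPT, *AJUBA*, *AMOTL2*, *ANKRD1*, *LATS1* and *TEAD1* were higher and *CCN2* was lower, while *YAP1*, *WWTR1*, *LATS2* and *CCN1* did not pass the test. Among the classical targets, *CCN2* fell to 0.526-fold of the control, *ANKRD1* rose 1.35-fold, and *CCN1* was at 0.928-fold with overlapping groups. Without control replicate 1, which stood apart, *CCN2* was at 0.679-fold and still called, and *ANKRD1* was at 1.26-fold with an adjusted p of 0.0646 in edgeR's test and no longer called.

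In the Hippo pathway, the kinases MST1 and MST2 activate LATS1 and LATS2, which phosphorylate YAP and its paralog TAZ, the product of *WWTR1*. Phosphorylated YAP and TAZ are held in the cytoplasm or degraded, and the unphosphorylated proteins enter the nucleus and activate genes through TEAD factors. In squamous epithelia, the pathway responds to cell contact, cell shape and cytoskeletal tension. Much of this control acts on proteins, which RNA counts do not measure.

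All 6 libraries came from HSC-4, an established human cell line derived from an oral squamous carcinoma. Of these, 3 were made from cells given 50 µM DAPT for 24 h. DAPT is a γ-secretase inhibitor that blocks the cleavage by which Notch receptors are activated. The other 3 are labelled control. By the paper's account these received DMSO, the solvent of DAPT, over the same time. The deposit carries the unexplained letters GM for these libraries and its design text names growth medium, so that if no DMSO was added, the effects of vehicle and DAPT cannot be told apart. The labels number the replicates without saying that they were separate cultures, so the p-values measure the spread between these libraries, which may be technical.

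The libraries held 12276313 to 16317672 counts on genes, and 3 reads, taken as the smallest signal, equalled 0.184 to 0.244 CPM, the read count relative to the library total. This limit covers counting error only, and all other CPM values are relative to TMM-normalized totals. The treatment was checked on 5 Notch target genes, all of which were lower with DAPT, with log2 fold changes of -0.77 for *HES1*, -1.98 for *HEY1* and -1.43 for *NRARP*. Of 9 squamous epithelial markers, 5 were lower and 2 higher with DAPT, and their summed level was 5731 to 6038 CPM in the control and 3960 to 4198 CPM with DAPT. *KRT14* was low in this line, at 3.17 ± 0.319 CPM (SD, n = 3) in the control. Control replicate 1 stood apart from the other libraries. Its 7 fibroblast markers summed to 566 CPM, against 50.0 to 58.4 CPM in the other 5 libraries. In those 5, *COL1A1* alone gave 48.3 to 54.0 CPM, and it reached 273.5 CPM in control replicate 1. *COL1A2* reached 215 CPM in control replicate 1, against 0.195 to 2.02 CPM in the others. *VIM*, chosen after its values were seen, reached 239.7 CPM in that library, against 0.844 to 2.24 CPM. The 6 endothelial markers summed to 1.24 to 1.81 CPM in the control and 2.41 to 2.99 CPM with DAPT, with *CLDN5* at 0, and *CDH5* was called higher at 0.328 ± 0.171 against 1.81 ± 0.485 CPM (SD, n = 3). The part of control replicate 1 in the results was not tested, and each fold change of the 10 genes is given with and without it. In bulk RNA, fewer cells of a type and less RNA per cell cannot be told apart.

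Promoter sequences are shown for *CCN2* and *ANKRD1* because these targets passed the test in opposite directions. The 250 bases before the transcription start were read from RefSeq on GRCh38.p14 and are written 5′ to 3′ on the gene's strand. Capitals mark GGAATG, the core of the TEAD binding motif, which was searched on both strands. The window is chr6:131951373-131951622 on the minus strand for *CCN2* and chr10:90921088-90921337 on the minus strand for *ANKRD1*.
CCN2: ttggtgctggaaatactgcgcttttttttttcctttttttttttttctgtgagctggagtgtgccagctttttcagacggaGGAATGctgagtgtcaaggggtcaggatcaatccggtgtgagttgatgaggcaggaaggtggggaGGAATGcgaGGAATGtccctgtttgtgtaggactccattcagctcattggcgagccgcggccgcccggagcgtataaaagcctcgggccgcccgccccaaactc
ANKRD1: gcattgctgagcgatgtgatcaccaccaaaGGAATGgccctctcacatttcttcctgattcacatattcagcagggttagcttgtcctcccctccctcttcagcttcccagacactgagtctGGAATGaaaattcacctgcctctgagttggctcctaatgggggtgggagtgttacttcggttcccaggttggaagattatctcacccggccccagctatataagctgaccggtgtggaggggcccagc

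The *CCN2* promoter held 3 matches to GGAATG, at bases -169 to -164, -104 to -99 and -95 to -90 from the start. The *ANKRD1* promoter held 2, at bases -220 to -215 and -128 to -123. Of 35116 RefSeq promoters of the same length, 11.9% held at least 1 match, 0.94% at least 2 and 0.0826% at least 3. In the count annotation, *ANKRD1* extends to base 90921276 and thus covers part of its window.

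*YAP1*, *AMOTL2* and *AJUBA* each held 1 match, shown with 12 bases on either side. The stretches lie at chr11:102110273-102110302 on the plus strand for *YAP1*, chr3:134374499-134374528 on the minus strand for *AMOTL2* and chr14:22976884-22976913 on the minus strand for *AJUBA*. For *AMOTL2* and *AJUBA* the match was in the second of 2 promoter entries, and the first entry held none. In the count annotation, *AMOTL2* extends to base 134375479 and *AJUBA* to base 22982551, so that these stretches lie within the genes. In *AMOTL2* the match read CATTCC, the same motif on the opposite strand.
YAP1: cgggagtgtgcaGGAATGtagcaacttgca
AMOTL2: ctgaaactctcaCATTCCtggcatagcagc
AJUBA: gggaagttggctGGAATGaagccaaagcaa

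No match to GGAATG was found in the promoter entries of *WWTR1*, *LATS1* and *LATS2*, and 8 of the 10 genes, all but *CCN1* and *TEAD1*, had an entry. These 8 genes had 12 entries, while the shares of all promoters are per entry. A gene with 2 entries could match in either. TGGGAA, the core bound by RBPJ, the DNA-binding partner of the Notch intracellular domain, occurred on either strand in 20.8% of all promoters and among these genes in *ANKRD1* alone, with 2 matches. The AP-1 motif TGANTCA occurred in 6.57% of all promoters, in *ANKRD1* and in the second of 2 entries of *LATS1*. The CArG box of serum response factor occurred in 1.16% of all promoters and in none of the entries. Matches were counted on both strands and also where they overlapped another motif, though none did so in these genes, and a match describes the sequence and not a bound site. Of the genes with an entry that were called higher, *ANKRD1*, *AMOTL2* and *AJUBA* held a match to GGAATG and *LATS1* held none. *CCN2*, with the most matches, was called lower. Of those not called, *YAP1* held a match, and *WWTR1* and *LATS2* held none. A relation between matches and calls was not tested.

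All 10 genes passed the filter on low counts, and a gene was called at an adjusted p under 0.05 in edgeR's quasi-likelihood test. Of the 10, 6 were called, 5 higher and 1 lower, where 35.2% of the 15001 tested genes were called, 17.2% higher and 18% lower. The groups did not overlap in CPM for 7 of the 10, against 46.3% of all tested genes. DAPT lay above in 6 of them and below in 1, against 23.6% and 22.7% of all tested genes. None of the 6 called genes changed by 2-fold, while 2.37% of all tested genes were both called and changed by at least 2-fold. The median log2 fold change of the 10 genes was 0.22, and that of all tested genes was 0.01. Without control replicate 1, 5 genes were called, 4 higher and 1 lower, against 37.1% of 15162 genes, 18% higher and 19.1% lower, and the median was 0.20. The groups then did not overlap for 8 genes, 7 with DAPT above and 1 below, against 58.3% of all tested genes, 29.4% above and 28.9% below. No called gene among the 10 changed by 2-fold in that fit, while 2.59% of all tested genes were both called and changed by at least 2-fold.

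**Figure D1:**
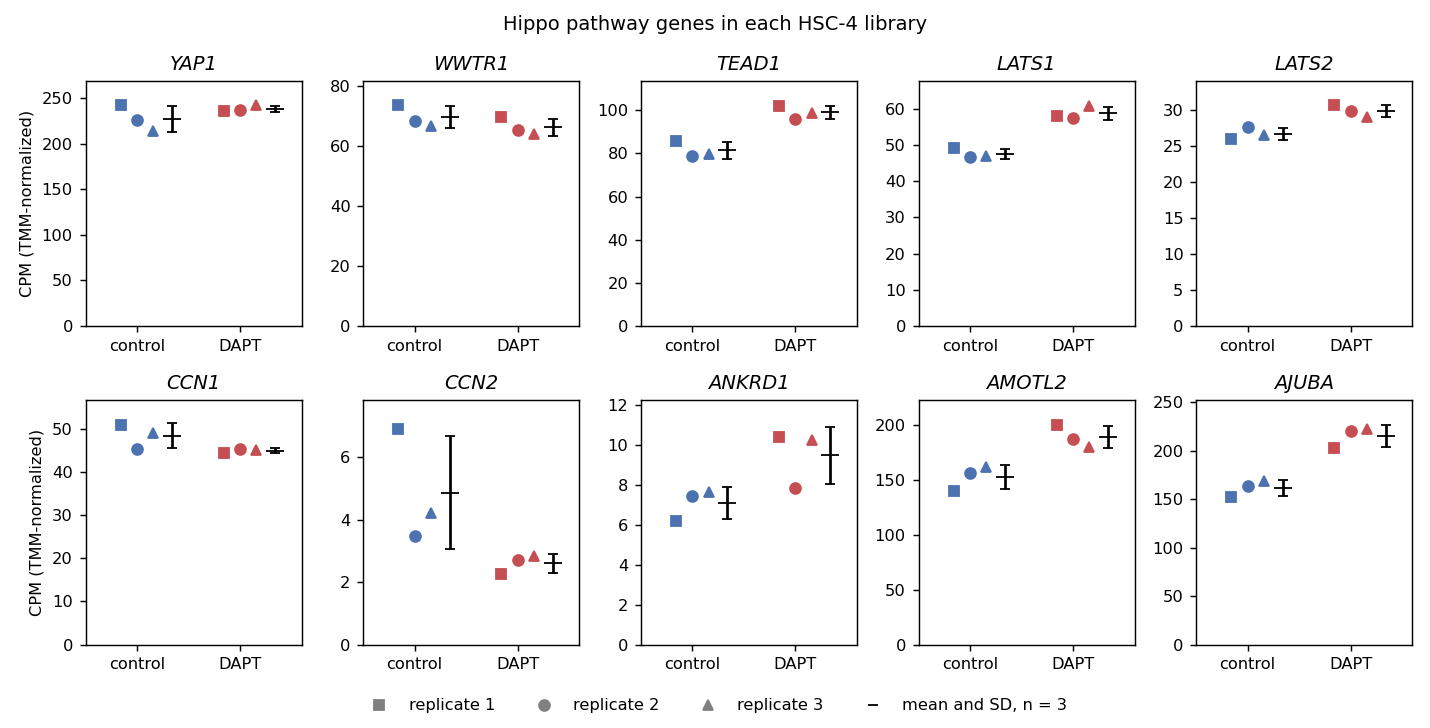
Level of the 10 Hippo pathway genes in each library, in TMM-normalized CPM from an axis at 0. Symbols mark the replicate, blue the control and red the DAPT libraries, and bars the mean and SD of 3 libraries. *CCN2* reached 6.91 CPM in control replicate 1 and 2.27 to 4.22 CPM elsewhere, and all DAPT values of *AJUBA* lay above all control values.

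Per length, *YAP1* was the most abundant of the 10 RNAs. Its level in RPKM, which is CPM divided by the exonic length in kilobases, was 36.1 ± 2.27 in the control (SD, n = 3) and 37.8 ± 0.547 with DAPT. In the control, *AJUBA* (27.4 ± 1.47 RPKM), *AMOTL2* (25.5 ± 1.83 RPKM) and *CCN1* (19.8 ± 1.19 RPKM) followed, and *WWTR1* (8.27 ± 0.429 RPKM) and *TEAD1* (7.61 ± 0.361 RPKM) came next. The lower levels were 5.6 ± 0.162 RPKM for *LATS1*, 4.75 ± 0.152 RPKM for *LATS2*, 3.58 ± 0.401 RPKM for *ANKRD1* and 2.08 ± 0.775 RPKM for *CCN2*. The neighbours *AJUBA* and *AMOTL2*, and *WWTR1* and *TEAD1*, overlapped between libraries in the control, and the other neighbours did not. With DAPT, *TEAD1* stood at 9.25 ± 0.273 RPKM above *WWTR1* at 7.87 ± 0.337 RPKM, without overlap. *AJUBA* with DAPT, at 36.5 ± 1.86 RPKM, overlapped with *YAP1*, and *ANKRD1*, at 4.79 ± 0.725 RPKM, overlapped with *LATS2*. Levels thus spanned a wide range, with the highest mean in the effector *YAP1* and the lowest in the target *CCN2*. The target *CCN1* lay above *TEAD1*, *LATS1* and *LATS2* in the control and with DAPT.

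**Figure D2:**
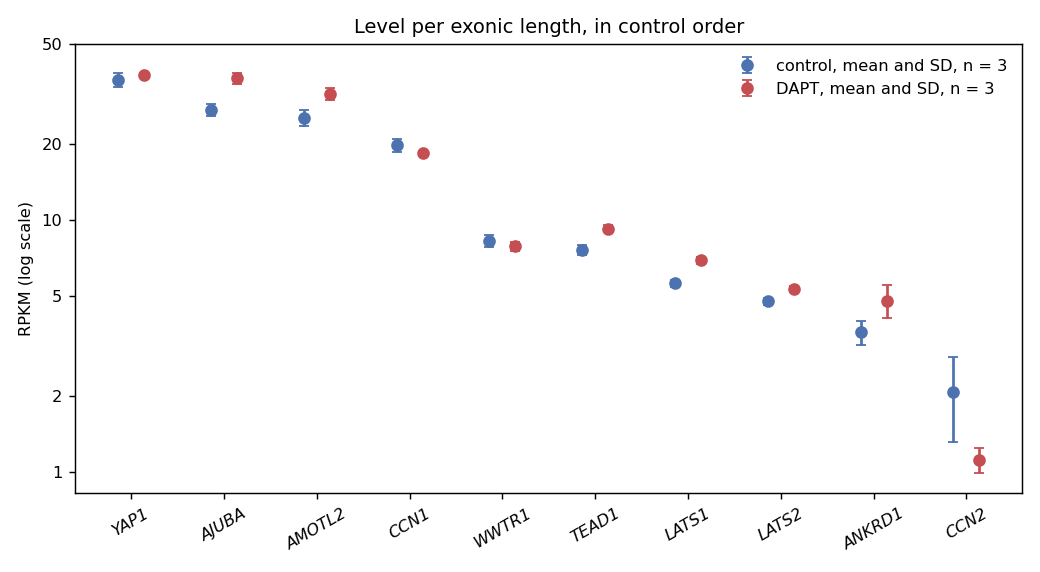
Level per exonic length of the 10 genes in RPKM on a log axis, ordered by the control mean. Points are means and bars the SD of 3 libraries, with the control in blue and DAPT in red. The order in the control ran from *YAP1* at 36.1 to *CCN2* at 2.08 RPKM.

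*YAP1* (ENSG00000137693, chromosome 11, 102110447 to 102233424, GRCh38, as are all gene positions given) encodes the effector of the pathway. It measured 243, 226 and 215 CPM in control replicates 1 to 3 and 236, 237 and 242 CPM in DAPT replicates 1 to 3. Its log2 fold change was 0.06 with a 95% interval of -0.04 to 0.17 and an adjusted p of 0.354 in edgeR's test. The groups overlapped, and control replicate 1 was the highest of the 6 libraries. Without that library, the groups no longer overlapped, and the log2 fold change was 0.12 with an adjusted p of 0.0514.

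*WWTR1* (ENSG00000018408, chromosome 3, 149517235 to 149736714) encodes TAZ, the paralog of YAP. It measured 73.6, 68.4 and 66.7 CPM in the control and 69.4, 65.2 and 64.1 CPM with DAPT, with overlap. Its log2 fold change was -0.07 with an interval of -0.19 to 0.05 and an adjusted p of 0.370 in edgeR's test, and -0.03 without control replicate 1. Per length, *YAP1* exceeded *WWTR1* 4.29- to 4.4-fold in the control and 4.53- to 5.04-fold with DAPT. This ratio of levels did not overlap between the groups and was not tested.

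*TEAD1* (ENSG00000187079, chromosome 11, 12674421 to 12944737) encodes a transcription factor through which YAP and TAZ reach DNA. It measured 85.9, 78.6 and 79.9 CPM in the control and 102, 96.2 and 98.8 CPM with DAPT. Every DAPT library exceeded every control library. The log2 fold change was 0.28 ± 0.05 (SE), with an adjusted p of 0.00039 in edgeR's test, and 0.32 without control replicate 1. Of its paralogs, *TEAD2* fell by 0.58 on the log2 scale, from 19.5 ± 1.38 to 13.1 ± 0.880 CPM, with an adjusted p of 6.11e-05 in edgeR's test, and was at -0.53 without control replicate 1. *TEAD4* was at -0.23 with an adjusted p of 0.0519, and at -0.32 with 0.00508 without control replicate 1. *TEAD3* was at 0.05 with overlapping groups and did not pass the test.

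The kinases LATS1 and LATS2 phosphorylate YAP and TAZ, and *LATS2* is itself a target gene of YAP. *LATS1* (ENSG00000131023, chromosome 6, 149658153 to 149718105) measured 49.1, 46.6 and 47.0 CPM in the control and 58.0, 57.4 and 60.8 CPM with DAPT. All DAPT values lay above all control values, the log2 fold change was 0.30 ± 0.06 (SE), and the adjusted p was 0.000645 in edgeR's test. Without control replicate 1 the log2 fold change was 0.33. *LATS2* (ENSG00000150457, chromosome 13, 20973036 to 21061586) measured 25.9, 27.6 and 26.5 CPM in the control and 30.7, 29.9 and 29.0 CPM with DAPT. Its groups did not overlap either, but its log2 fold change of 0.17, with an interval of 0.01 to 0.32, had an adjusted p of 0.0876 in edgeR's test. Scaling by library size alone gave 0.21 with an adjusted p of 0.0285. Without control replicate 1, *LATS2* was at 0.14 with an adjusted p of 0.148. Per length, *LATS1* exceeded *LATS2* 1.116- to 1.254-fold in the control and 1.251- to 1.383-fold with DAPT, with overlap. The difference between the changes of the paralogs was not tested.

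*AJUBA* (ENSG00000129474, chromosome 14, 22971177 to 22982551) encodes a LIM domain protein that binds and inhibits LATS kinases at cell junctions. It measured 152, 163 and 169 CPM in the control and 202, 221 and 222 CPM with DAPT, and the groups did not overlap. Its log2 fold change was 0.42 ± 0.05 (SE), with an adjusted p of 3.58e-06 in edgeR's test, and 0.37 with 1.90e-06 without control replicate 1. The related *LIMD1* was at 0.03 with overlapping groups, and *WTIP*, at 1.07 ± 0.260 CPM in the control, was at -0.36 with an adjusted p of 0.471. *AMOTL2* (ENSG00000114019, chromosome 3, 134355874 to 134375479) encodes a motin, a junctional protein that binds YAP and activates LATS2, and it is also a YAP target. It measured 140.2, 156 and 161 CPM in the control and 199.9, 187 and 179.7 CPM with DAPT, again without overlap. Its log2 fold change was 0.31 ± 0.06 (SE), with an adjusted p of 0.000209 in edgeR's test, and 0.26 without control replicate 1. The other motins were called in the same direction. *AMOTL1* rose by 0.20 on the log2 scale, from 167 ± 1.93 to 192 ± 3.15 CPM, with an adjusted p of 0.00197, and *AMOT* rose by 0.62, from 2.09 ± 0.679 to 3.29 ± 0.339 CPM, with an adjusted p of 0.0359. Leaving out control replicate 1, *AMOTL1* was at 0.22 and *AMOT* at 0.95 with an adjusted p of 0.00345. Exons of other genes on the same strand cover 3.12% of the exonic length of *AMOTL2* and 0.85% of that of *AJUBA*, and those of the other 8 genes are not covered.

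*CCN2* (ENSG00000118523, chromosome 6, 131948176 to 131951372) encodes connective tissue growth factor, a secreted matricellular protein and standard readout of YAP. It had 111, 48 and 51 reads in the control and 35, 37 and 37 reads with DAPT, or 6.91, 3.47 and 4.22 CPM against 2.27, 2.71 and 2.84 CPM. Every DAPT library was below every control library, and control replicate 1 was by far the highest. The log2 fold change was -0.93 ± 0.23 (SE), with an interval of -1.42 to -0.43 and an adjusted p of 0.00509 in edgeR's test. Without control replicate 1, it was -0.56 with an interval of -1.0 to -0.12 and an adjusted p of 0.0410. The direction and the call thus remained, and the size depended on the library in which fibroblast markers were high.

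*CCN1* (ENSG00000142871, chromosome 1, 85580761 to 85583950) encodes CYR61, the closest relative of *CCN2* among these genes. It measured 51.0, 45.3 and 49.0 CPM in the control and 44.4, 45.5 and 45.1 CPM with DAPT, with overlap. Its log2 fold change was -0.11 with an interval of -0.25 to 0.03 and an adjusted p of 0.223 in edgeR's test, and -0.07 without control replicate 1. Per length, *CCN1* exceeded *CCN2* 7.06-fold in control replicate 1, 11.1- to 12.5-fold in the other controls and 15.2- to 18.7-fold with DAPT. These ratios did not overlap and were not tested. Of the rest of the CCN family, *CCN3* rose by 0.21 on the log2 scale with an adjusted p of 0.0438, which was 0.0714 without control replicate 1. *CCN5* was at -0.36 with an adjusted p of 0.0539, which became 0.0412 without that library, and *CCN6* was at 0.24 with 0.194. *CCN4* was not tested at 0 to 20 reads, of which the 20 were in control replicate 1.

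*ANKRD1* (ENSG00000148677, chromosome 10, 90912096 to 90921276) encodes an ankyrin repeat protein found in muscle sarcomeres and nuclei and is induced by YAP and TAZ in many cell lines. It had 99, 103 and 92 reads in the control and 160, 107 and 133 reads with DAPT, or 6.17, 7.44 and 7.62 CPM against 10.4, 7.82 and 10.2 CPM. DAPT replicate 2 lay just above the highest control. The log2 fold change was 0.43 ± 0.14 (SE), with an interval of 0.15 to 0.72 and an adjusted p of 0.0171 in edgeR's test. This call was lost without control replicate 1 (0.34, adjusted p 0.0646), without DAPT replicate 1 (0.36, 0.0843), without DAPT replicate 3 (0.38, 0.0740) and with DESeq2 (0.43, 0.0906).

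**Figure D3:**
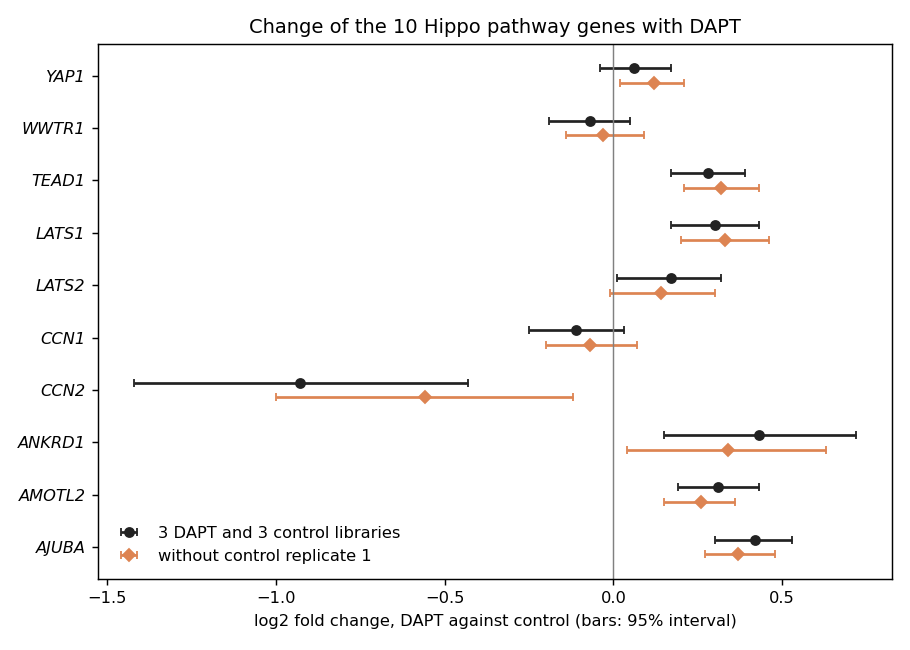
Log2 fold change of DAPT against control for the 10 genes from edgeR's quasi-likelihood fit, with 95% intervals as bars. Black circles use all 6 libraries and orange diamonds leave out control replicate 1. *CCN2* lay at -0.93 and -0.56, and *TEAD1*, *LATS1*, *AMOTL2* and *AJUBA* lay between 0.26 and 0.42 in both.

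The wider pathway was read in the same fit. Among 71 pathway genes, 65 were tested and 22 called, 15 higher and 7 lower, which is 33.8% against the 35.2% of all tested genes, with a median log2 fold change of 0.06. Leaving out the 7 of the 10 genes that this list holds, 18 of 58 were called, or 31.0%. The fit without control replicate 1 called 30 of 65, 21 higher and 9 lower, which is 46.2% against 37.1% of all tested genes. The share of pathway genes called was thus near that of all genes with all libraries and higher than it without this library. Leaving out each library in turn, the number called ranged from 14 to 30, and the 30 came only without control replicate 1. Without any one of the other libraries, 14 to 17 of 65 pathway genes were called. Those fits called 4174 to 4441 of 15162 to 15353 genes in all. The share of pathway genes called was below that of all genes in each of them.

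By role, the core kinase cassette had 2 of 7 genes called, both higher. They were *LATS1* and *STK4*, which encodes MST1 and was at 0.14 with an adjusted p of 0.0343 in edgeR's test. These 2 are 28.6% of the cassette, against 35.2% of all tested genes, and the median of the cassette was 0.14. When control replicate 1 was left out, *MOB1B* and *STK3* were called higher as well, which made 4 of 7. The fit without this library called 37.1% of all tested genes, 18% higher and 19.1% lower. The 35 tested upstream regulators had 10 higher and 5 lower genes, or 42.9% called, and a median of 0.09, and 13 higher and 6 lower without that library. *AMOT*, *AMOTL2* and *TAOK3*, a kinase that activates MST kinases, at 0.36, led the higher genes. *RASSF4*, *RASSF1* and *RASSF5*, whose products carry the SARAH domain that binds MST kinases, led the lower genes at -0.32, -0.28 and -0.27. Of 15 inhibitors of the cassette, *AJUBA* and *SIKE1*, at 0.29, were higher and *STK25*, at -0.27, was lower, which is 20% of the list, with a median of 0.03, and 4 were called without control replicate 1. Both *SIKE1* and *STK25* encode parts of or partners to the STRIPAK phosphatase complex. Of 8 tested nuclear effectors, *TEAD1* was higher and *TEAD2* lower, which is 25%, with a median of 0.01, and *TEAD4* joined the lower genes without control replicate 1.

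Genes activated by YAP and TAZ were followed with a published signature of 22 genes recalled from general knowledge, 5 of which are among the 10 genes. Of these 22, 12 were called, 7 higher and 5 lower, which is 54.55% against 35.2% of all tested genes. The median log2 fold change was -0.04, which turned to 0.01 with 8 higher and 3 lower under scaling by library size and to 0.04 without control replicate 3. *GADD45A*, a stress-induced growth arrest gene, rose by 0.77 on the log2 scale, from 19.0 ± 0.553 to 32.3 ± 2.86 CPM, followed by *ANKRD1* and *AMOTL2*. *CCN2* was followed among the lower genes by *F3*, which encodes tissue factor and went from 259 ± 12.4 to 172.7 ± 9.50 CPM (-0.58), and by *NUAK2*, a kinase gene, at -0.42. Without the 5 genes described above, 9 of 17 were called, 5 higher and 4 lower, or 52.9%. Of the 22, 11 were called without control replicate 1, 7 higher and 4 lower, or 50.0% against 37.1% of all tested genes, with *GADD45A* at 0.77, *F3* at -0.59 and *NUAK2* at -0.48. The signature thus held changes in both directions.

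*CCN1*, *CCN2* and *ANKRD1* are also known targets of serum response factor (SRF) and its actin-regulated co-activators, the MRTF proteins. Of 22 tested genes of an MRTF and SRF list that leaves out these 3, 1 was higher and 11 were lower with DAPT, against 17.2% and 18% of all tested genes, and the median was -0.19. The higher gene was the immediate early gene *EGR1*, at 0.86. *TGM2* (transglutaminase 2) was at -1.05, *TAGLN2* (transgelin 2) at -0.56 and *ACTG1* (γ-actin) at -0.51. Without control replicate 1, 2 were higher and 13 lower, against 18% and 19.1% of all tested genes in that fit. In that library, *TAGLN* and *MYL9* stood at 13.6 and 15.5 CPM, against 2.27 to 5.71 CPM in the other libraries, and they were called lower when it was left out.

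**Figure D4:**
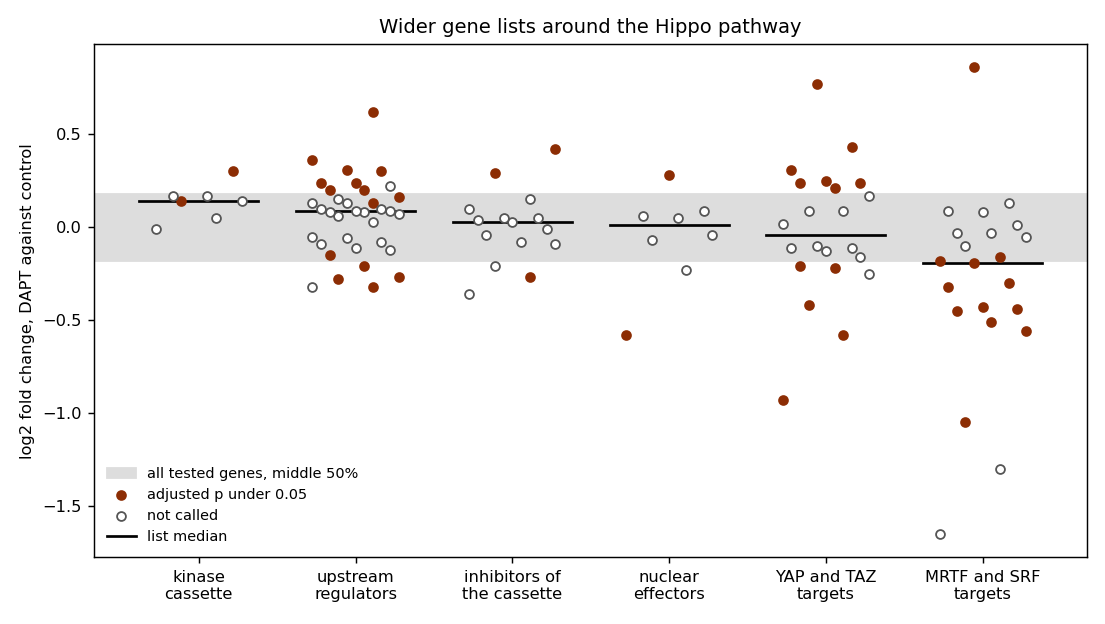
Log2 fold change of DAPT against control for the tested genes of 6 lists, 1 point a gene, spread sideways for legibility. Filled points were called at an adjusted p under 0.05, bars are list medians and the grey band is the middle 50% of all tested genes, -0.18 to 0.18. The median was -0.19 for the MRTF and SRF targets and lay between -0.04 and 0.14 for the other lists.

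Across the 6 libraries, the genes most like the 3 targets by Pearson's r of log2 CPM differed for each. They were *FMNL2* (0.994), *DOCK5* (0.984) and *USP3* (0.973) for *CCN1*, and *GTF2H5* (0.992), *GCNT1* (0.989) and *S100A4* (0.987) for *CCN2*. For *ANKRD1* they were *ABHD10* (0.990), *TET3* (0.981) and *CCDC66* (0.978). These r describe 6 points that share the treatment, the library depth and control replicate 1, and the genes were chosen as the highest of all tested genes. *DOCK5* belongs to the YAP and TAZ signature as well.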

How the data were processed

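Messenger RNA libraries of HSC-4 cells were sequenced as single-end reads. The authors used Trim Galore for trimming and HISAT2 for mapping to GRCh38. Per the file headers, exon reads were counted per Ensembl gene (release 96) on 1 strand with featureCounts 1.6.3. They deposited read counts without normalization. The labels also name HTSeq and DESeq2, whose roles they do not give.

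Groups and replicate numbers came from the sample labels. Of 58884 genes, 58472 were matched to GENCODE release 44 for symbols, and gene positions and exonic lengths are those of the count files. Counts were filtered (filterByExpr, minimum count 10), TMM-normalized and compared with edgeR 4.0.16 in R 4.3.3 by a robust quasi-likelihood F test, with Benjamini-Hochberg adjustment over 15001 genes. CPM are TMM-normalized, and a prior count of 2 was used for log2 CPM in correlations. SEs were calculated from the log2 fold change and the F statistic of each gene, and 95% intervals from these SEs. The test was also tried on counts simulated from the main fit with changes of 2-fold, a size that none of the 10 genes reached in that fit. The log2 fold change of *CCN2* went beyond this size without control replicate 2 (-1.13) and without control replicate 3 (-1.02). The members and lists were chosen with earlier results of these data known, so no list was tested as a set and no p was adjusted over a list. Named are the 10 genes, their paralogs, up to 3 called genes per list and direction with the largest change, *HES1*, *HEY1* and *NRARP*, and the 3 genes most like each of *CCN1*, *CCN2* and *ANKRD1* (mean of at least 1 CPM). Alternatives were RLE and library size scaling, DESeq2 1.42.0, limma-voom (limma 3.58.1), a minimum of 10 counts in all libraries, no filter, a replicate block and each library left out. A further marker list is not reported here.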

Additional observations from a re-analysis of the deposited data

How the results depend on the processing

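None of the fold changes of the 10 genes changed direction under the 13 alternatives. The median of the YAP and TAZ signature changed sign under 2 of them, as given with it, and the balance of all called genes turned under scaling by library size. The number of the 10 genes called lay between 5 and 7, where 3641 to 5618 genes were called in all. Leaving out each library in turn gave 5 to 6 called among the 10 genes (4 to 5 higher, 1 lower). It gave 14 to 30 of 65 pathway genes, 8 to 11 of 22 genes of the YAP and TAZ signature and 9 to 15 of 22 MRTF and SRF targets. In all, these fits called 4174 to 5618 genes out of 15162 to 15353 tested. The 14 pathway genes, against 22 with all libraries, were found without control replicate 2. That fit also called fewer genes in all, 4224 of 15162, against 5281 of 15001 with all libraries. The cause was not tested. DESeq2 called 3641 of 13653 genes in all and 5 of the 10. Scaling by library size called 3445 genes higher and 2156 lower, against 2574 and 2707 with TMM, and added *LATS2* to the called genes. The calls of *ANKRD1* and *LATS2* changed under the settings given with them. Those of *YAP1*, *WWTR1*, *TEAD1*, *LATS1*, *CCN1*, *CCN2*, *AMOTL2* and *AJUBA* did not, and the log2 fold change of *CCN2* ranged from -1.13 to -0.56.

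A replicate block by the label numbers called 5295 of 15001 genes in all and 6 of the 10. It called 21 of 65 pathway genes, 12 of 22 in the signature and 13 of 22 MRTF and SRF targets. Deviations of same-numbered libraries correlated at 0.0173, 0.0252 and 0.00382, so that the numbers were not taken to pair them. At 35 to 111 reads per library, the depth limits the precision for *CCN2*, and at 92 to 160 reads that for *ANKRD1*.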
